A study of Rattus norvegicus with 48 samples.

Results

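Ccnd1 (ENSRNOG00000020918) and Cdkn1a (ENSRNOG00000000521) encode cyclin D1 and the CDK inhibitor p21, which act against each other on the cell's decision to leave G1. They are 2 of the 32883 genes in the count table and were picked by these Ensembl IDs. Both passed the filter on low counts, which kept 14775 genes. RNA was sequenced from rat liver cut into thin slices that stay alive in culture, a model used to test compounds against fibrosis. The 48 libraries fell into 5 groups. BDL_SB525334 (n = 9) held slices from BDL rats, read here as rats with bile duct ligation, an operation that blocks bile flow, exposed to SB525334, which inhibits ALK5, a receptor kinase for TGF-beta. BDL_Nint (n = 10) and BDL_Sora (n = 10) held slices from ligated rats exposed to Nint or Sora, read here as the multikinase inhibitors nintedanib and sorafenib since the labels give only the short forms. BDL_veh (n = 10) held slices from ligated rats with vehicle, and Sham_veh (n = 9) slices from sham-operated rats with vehicle, reading veh as vehicle. The 4 BDL groups therefore all carry the ligation, and all 5 groups were cultured as slices.

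The labels give no strain, age, sex, dose, exposure time or number of animals, and no group of sham slices with a compound was analysed here. Libraries may share an animal, so the p-values reflect no more than library-to-library spread, part of which may be technical. The deposited sample sheet gives BDL_SB525334 another compound code in 9 of 9 libraries, so the identity of that compound rests on the labels. Total counts ranged from 12249470 to 29596987 per library. The files do not pair other Ensembl IDs with symbols, so the liver identity of the slices was not checked against marker genes and no other named gene of the pathway is described. Slices are whole tissue, so fewer cells of a type and less RNA per cell cannot be told apart.

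Cyclin D1 accumulates when growth signals reach a resting cell. It binds CDK4 or CDK6, and the complex phosphorylates the retinoblastoma protein, which then releases E2F factors and lets the cell enter S phase. p21 binds cyclin-CDK complexes and blocks them, and it also binds PCNA, the clamp of the replication machinery. Its gene is a direct target of p53, and TGF-beta signalling raises it in several epithelial cell types. Hepatocytes of the resting adult liver hold little cyclin D1, and its induction is a known step of liver regeneration.

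The start of Cdkn1a carries a sequence that resembles the p53 response element, and it is shown because p53 is the best known activator of this gene. The 138 bases ahead of the annotated gene, chr20:7150682-7150819 of assembly GRCr8 on the plus strand (RefSeq), read as follows, with the match in capitals.

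Cdkn1a upstream: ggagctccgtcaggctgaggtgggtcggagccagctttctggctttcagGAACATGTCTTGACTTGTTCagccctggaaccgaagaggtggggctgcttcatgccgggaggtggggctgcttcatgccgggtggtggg

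The match lies at chr20:7150731-7150750 and ends 70 bases before the annotated start of the gene. It departs at 1 base from the consensus of the p53 element, taken without a spacer between its repeats. The search allowed at most 1 mismatch over the 20 bases, and the consensus reads the same on both strands. Elements with a spacer were not searched for. The search covered the first 250 bases of each RefSeq promoter entry. For Cdkn1a that window ran to position 7150931, past the annotated start of the gene, and the bases after the start are not printed. Of 33469 such windows, 20 (0.0598%) held a match. The whole window of Cdkn1a held neither CAGAC, a short box bound by Smad proteins, nor GGGCGG, a box bound by Sp1, which 42.9% and 30.5% of the windows held on either strand. Other sequences bound by these proteins were not searched for. These matches describe letters only. In the same assembly Ccnd1 lies at chr1:209518288-209527986 and Cdkn1a at chr20:7150820-7161373.

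Ligation was read from BDL_veh against Sham_veh. Ccnd1 was about 9-fold higher in ligated slices and Cdkn1a about 2-fold lower, and neither gene had a library of one group within the range of the other. Groups were apart in this way for 52.6% of all genes tested (27.5% higher and 25.2% lower in BDL_veh), and 82.2% were called in either direction, so both are common here. Levels are given in CPM, the count of a gene relative to the total of its library after scaling with TMM factors, which allow for a few abundant genes taking up reads.

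Ccnd1 ranged from 84.2 to 112.8 CPM over the 10 BDL_veh libraries (median 95.4), against 6.34 to 13.0 CPM over the 9 Sham_veh libraries (median 10.5). The means were 96.2 ± 7.69 CPM in BDL_veh and 10.2 ± 2.02 CPM in Sham_veh (SD). The lowest sham library rested on 82 Ccnd1 counts, with an exact 95% Poisson interval of 65.2 to 101.8, so counting error there is well below the gap between the groups. Ccnd1 rose by a log2 fold change of 3.23 (standard error 0.14, adjusted p = 6.89e-26 by the quasi-likelihood test of edgeR with Benjamini-Hochberg adjustment over all genes tested), a 9.36-fold difference with a 95% interval of 7.71 to 11.4. Of all genes tested, 40% were called higher in this comparison, and 10% had a higher log2 fold change than Ccnd1.

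Cdkn1a ranged from 79.2 to 139.4 CPM in BDL_veh (median 118.5), against 182.6 to 317.2 CPM in Sham_veh (median 224.3). The means were 116.2 ± 17.8 CPM in BDL_veh and 234.4 ± 48.5 CPM in Sham_veh (SD, n = 10 and 9). All 10 ligated libraries lay below the lowest sham library. Cdkn1a fell by 1.01 on the log2 scale (standard error 0.14, adjusted p = 3.67e-09 by edgeR), so that Sham_veh held 2.02 times as much (95% interval 1.67 to 2.44). In this comparison 42.2% of genes were called lower, and 12.7% had a lower log2 fold change than Cdkn1a. Without TMM factors, on total counts, the change was -0.66 and still called (adjusted p = 3.22e-05, the highest over 12 settings, with 7.68e-11 the lowest), while the median of all genes was 0.30. Intronic shares of alignments were 33.74% to 36.76% in BDL_veh, against 24.36% to 31.06% in Sham_veh, and the part of this gap in the ligation changes was not tested.

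**Figure D1:**
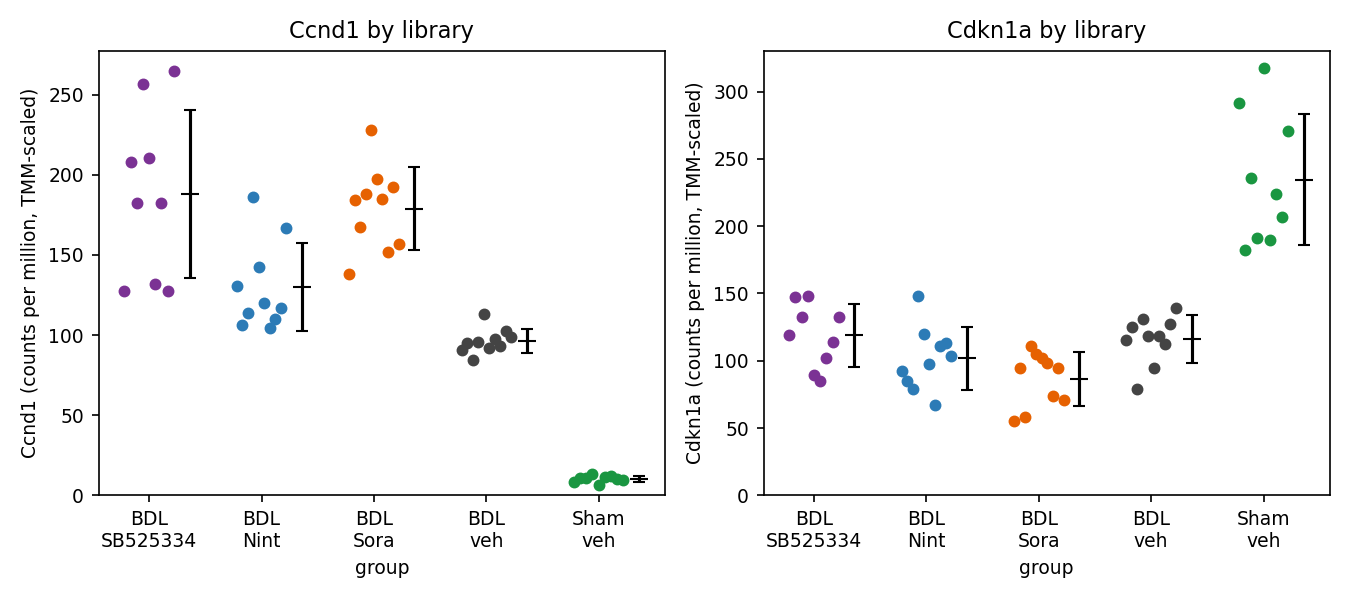
Level of Ccnd1 (left) and of Cdkn1a (right) in each library, in TMM-scaled CPM, by group. Points are libraries and the bar beside them is the mean with 1 SD; Sham_veh lies lowest for Ccnd1, at 6.34 to 13.0 CPM, and highest for Cdkn1a, at 182.6 to 317.2 CPM.

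The 3 sham libraries with the lowest Ccnd1 were also the 3 with the highest Cdkn1a. Sham_veh library 5 had 6.34 CPM of Ccnd1 and 317.2 of Cdkn1a, library 1 had 8.07 and 291.4, and library 9 had 9.84 and 270.7. The other 6 lay at 10.2 to 13.0 CPM for Ccnd1 and 182.6 to 236.1 CPM for Cdkn1a. Libraries 1, 5 and 9 also had the highest intronic shares of alignments of the sham group, 28.99% to 31.06% against 24.36% to 27.24% in the other 6, and the lowest total counts, 13551784 to 14320705 against 16153046 or more. Without these 3 libraries, a setting chosen after seeing the data, the ligation change of Ccnd1 was 3.08 and that of Cdkn1a -0.82 on the log2 scale, and both were still called (edgeR adjusted p = 4.12e-22 and 1.48e-06). Since these libraries lie farthest from the ligated ones, leaving them out narrows the difference by construction. The part of library quality in the spread within the sham group was not tested.

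The compounds were then set against vehicle, all in ligated slices. Ccnd1 was higher with each of the 3 compounds than with vehicle, in the same direction as the ligation change. Cdkn1a was lower with Sora, and was not called with Nint or SB525334. The 3 comparisons share the 10 vehicle libraries, so each is given with its own values. The background differed widely between them: 29.3% of all genes were called for Sora, 24.3% for Nint and 73% for SB525334 (38.2% higher and 34.8% lower), in either direction. Mitochondrial and intronic shares of alignments lay outside the vehicle range with SB525334 and overlapped it with Nint. With Sora they lay outside it in every library except library 3, at 1.54% mitochondrial and 34.86% intronic alignments. Mitochondrial alignments made up 2.19% to 4.49% with SB525334, 1.37% to 1.64% with Nint and 1.54% to 1.86% with Sora, against 1.33% to 1.54% in BDL_veh. Intronic alignments made up 25.98% to 33.11% with SB525334, 34.29% to 36.36% with Nint and 31.40% to 34.86% with Sora, against 33.74% to 36.76% in BDL_veh. Their part in the changes of Ccnd1 and Cdkn1a was not tested.

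With Sora, Ccnd1 ranged from 138.3 to 227.9 CPM (median 184.5), against 84.2 to 112.8 CPM in BDL_veh. Every Sora library lay above every vehicle library, with TMM factors and with total counts, as was so for 3.07% of all genes with TMM factors. Ccnd1 averaged 178.9 ± 26.0 CPM in BDL_Sora and 96.2 ± 7.69 CPM in BDL_veh (SD, n = 10 each), a rise of 0.89 on the log2 scale (standard error 0.12, adjusted p = 6.88e-08 by edgeR) or 1.86-fold (95% interval 1.58 to 2.19). Genes called higher made up 16.3% of all genes in this comparison, and 4.42% had a higher log2 fold change than Ccnd1.

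Cdkn1a ranged from 55.2 to 111.2 CPM with Sora (median 94.5), against 79.2 to 139.4 CPM in BDL_veh. The groups overlapped: 4 of the 10 Sora libraries lay below the lowest vehicle library, and all 10 lay below the vehicle mean. Cdkn1a averaged 86.4 ± 20.2 CPM in BDL_Sora and 116.2 ± 17.8 CPM in BDL_veh, a fall by 0.43 on the log2 scale (standard error 0.13, adjusted p = 0.011 by edgeR), with 13% of genes called lower. The call was kept in the other settings tried, with adjusted p from 0.000392 to 0.0173, and with each library left out in turn (adjusted p from 0.00419 to 0.0283). Sora libraries 1, 3 and 10 had the lowest Cdkn1a, 55.2, 58.2 and 70.9 CPM, and also the fewest non-uniquely mapped reads within BDL_Sora, 8.38%, 8.01% and 8.44% against 8.67% to 9.25% in the other 7; the part of mapping in these low values was not tested.

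With Nint, Ccnd1 ranged from 104.5 to 186.3 CPM (median 118.3), against 84.2 to 112.8 CPM in BDL_veh. The groups overlapped slightly, and 7 of the 10 Nint libraries lay above the highest vehicle library. Ccnd1 averaged 129.7 ± 27.5 CPM in BDL_Nint and 96.2 ± 7.69 CPM in BDL_veh, a rise of 0.43 on the log2 scale (standard error 0.12, adjusted p = 0.00484 by edgeR) or 1.35-fold (95% interval 1.14 to 1.59), with 13.3% of genes called higher. Nint libraries 4 and 10, at 186.3 and 166.6 CPM, stood above the other 8, which reached at most 142.5 CPM. Left out 1 library at a time, the log2 fold change stayed between 0.36 and 0.46 and the call was kept.

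Cdkn1a ranged from 67.0 to 148.1 CPM with Nint (median 100.5), against 79.2 to 139.4 CPM in BDL_veh. The Nint libraries spread past both ends of the vehicle range, with 1 above its highest and 1 below its lowest value. The log2 difference was -0.19 (standard error 0.13, 95% interval -0.46 to 0.071, adjusted p = 0.3155 by edgeR), which does not pass the threshold and leaves room for a fall of the size seen with Sora. limma-voom with sample weights called it (log2 difference -0.27, adjusted p = 0.0201, against 0.0201 to 0.38 over 11 settings).

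With SB525334, Ccnd1 ranged from 127.6 to 264.5 CPM (median 182.2), against 84.2 to 112.8 CPM in BDL_veh. With TMM factors all 9 libraries lay above every vehicle library, as was so for 18.5% of all genes. With total counts the groups overlapped, since libraries 1, 6 and 8 had 111.5, 118.4 and 113.3 CPM, against up to 129.5 CPM in BDL_veh. Ccnd1 averaged 187.9 ± 52.4 CPM in BDL_SB525334 and 96.2 ± 7.69 CPM in BDL_veh (SD, n = 9 and 10), a rise of 0.96 on the log2 scale (standard error 0.12, adjusted p = 1.365e-09 by edgeR) or 1.95-fold (95% interval 1.65 to 2.31). The background is high here, and 11.1% of genes had a higher log2 fold change than Ccnd1. The change was 0.54 on total counts without TMM factors, still called (adjusted p = 9.58e-05, the highest over 12 settings, with 7.49e-13 the lowest), while the median of all genes was -0.38.

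The SB525334 libraries did not form an even group for Ccnd1. Libraries 1, 6 and 8 had 127.6, 131.7 and 127.7 CPM, and the other 6 had 182.1 to 264.5 CPM, with none between. Non-uniquely mapped reads were also fewest in these 3 libraries, 9.85% to 11.27% against 13.42% to 20.85% in the other 6, while BDL_veh lay at 8.10% to 8.89%. For Cdkn1a these 3 libraries, at 84.8 to 119.3 CPM, lay within or just below the range of the other 6, at 89.1 to 148.4 CPM. Without the 3 libraries the Ccnd1 change against vehicle was 1.18 on the log2 scale, a value that is higher by construction because they hold the least Ccnd1 of the group. The part of mapping in this split was not tested.

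**Figure D2:**
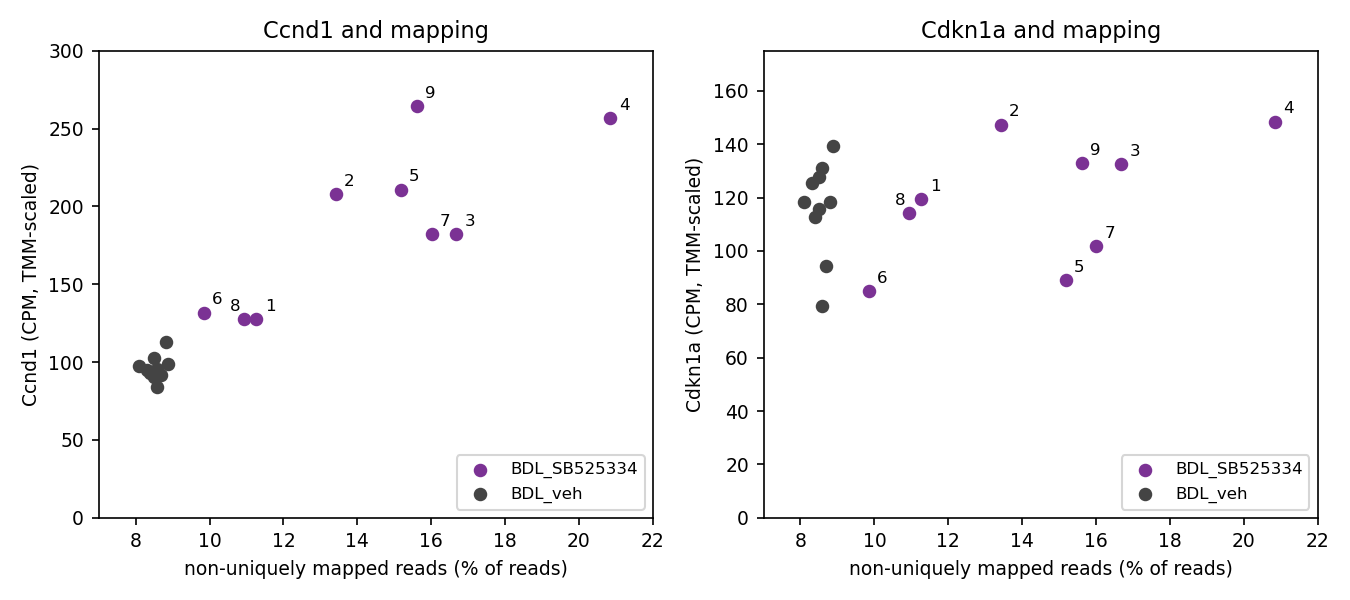
Ccnd1 (left) and Cdkn1a (right) in TMM-scaled CPM against the share of non-uniquely mapped reads, for BDL_SB525334 libraries (numbered) and BDL_veh libraries. SB525334 libraries 1, 6 and 8 have both the lowest Ccnd1 of their group, at 127.6 to 131.7 CPM, and its fewest non-uniquely mapped reads, at 9.85% to 11.27%.

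Cdkn1a ranged from 84.8 to 148.4 CPM with SB525334 (median 119.3), against 79.2 to 139.4 CPM in BDL_veh (median 118.5). The ranges nearly coincided. The log2 difference was 0.032 (standard error 0.14, 95% interval -0.24 to 0.30, adjusted p = 0.838 by edgeR). Its sign depended on the scaling. With total counts the log2 difference was -0.39 and was called (adjusted p = 0.0102, the lowest over 12 settings, with 0.999 the highest). Across the whole table the median log2 difference was -0.38 with total counts and 0.036 with TMM factors, so that relative to the median gene Cdkn1a stood near 0 under both.

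**Figure D3:**
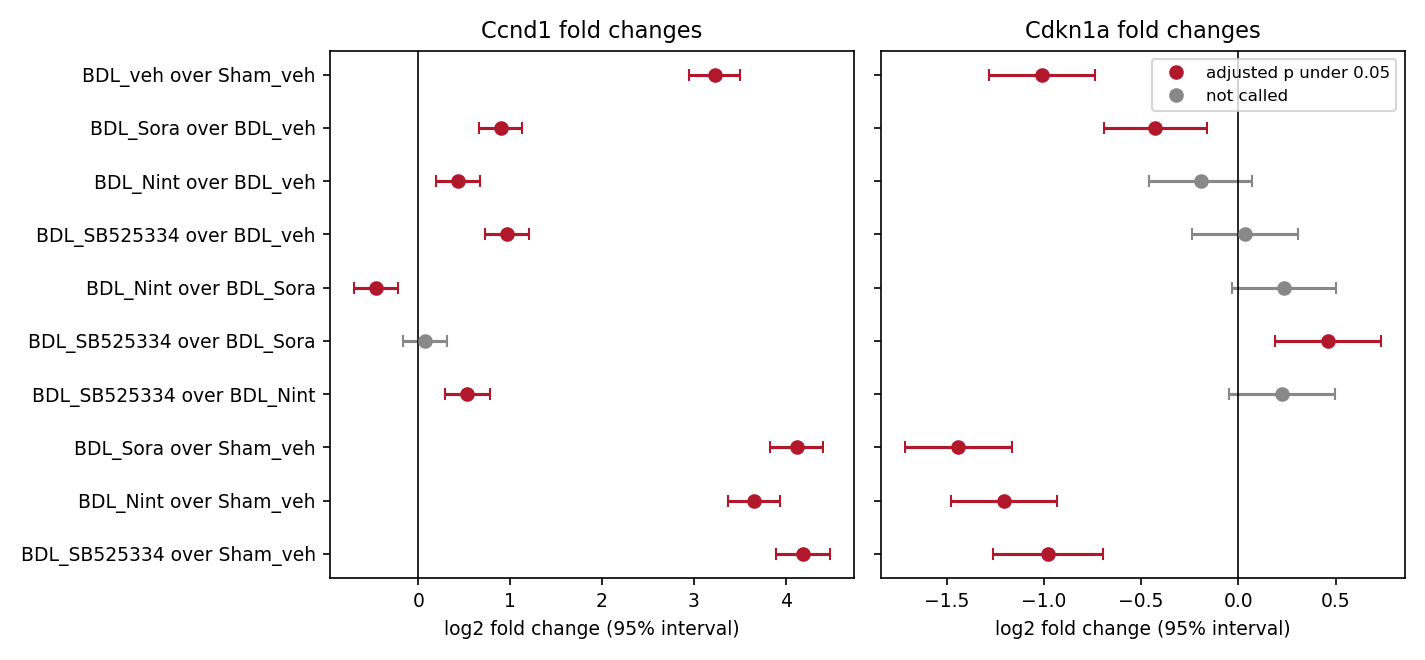
Log2 fold changes of Ccnd1 (left) and Cdkn1a (right) in 10 comparisons with 95% intervals, from the edgeR fit with TMM factors, with the first-named group over the second. Ccnd1 was called in 9 of the 10 comparisons and Cdkn1a in 6, and the 4 comparisons with Sham_veh gave the widest changes of Ccnd1, at 3.23 to 4.19. Of all genes, 2.32% were called for Nint against Sora, 24.3% for Nint and 29.3% for Sora against vehicle. The other comparisons called 72.4% to 82.2%, so calls are common in them.

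The compounds were also set against each other. In the labels no dose is given, so these values compare the slices as treated and not the compounds at matched exposure. Nint and Sora differed in 2.32% of all genes (1.37% called higher and 0.948% lower with Nint), and Ccnd1 was among them: it was lower with Nint by a log2 fold change of -0.46 (standard error 0.12, adjusted p = 0.0235 by edgeR), and 7 of the 10 Nint libraries lay below the lowest Sora library. This call was not stable. It was lost with plate column as a factor (adjusted p = 0.108, against 1.03e-05 to 0.108 over 10 settings), without Sora library 5 or 6 (adjusted p = 0.0596 and 0.053) and without Nint library 7 (0.0559), within a range of 0.00741 to 0.0596 over 20 single libraries left out. Cdkn1a differed by 0.23 between Nint and Sora (95% interval -0.031 to 0.50, edgeR adjusted p = 0.399).

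SB525334 and Sora gave Ccnd1 levels that could not be separated. The log2 difference was 0.070 (standard error 0.12, 95% interval -0.17 to 0.31, adjusted p = 0.61 by edgeR), where 72.4% of all genes were called in either direction (36.1% higher and 36.3% lower). Here too the result moved with the setting: with total counts Ccnd1 was lower with SB525334 by -0.30 (adjusted p = 0.0215), and without SB525334 libraries 1, 6 and 8, which hold the least Ccnd1 of their group, it was higher by 0.28 (adjusted p = 0.0225), within a range of 0.0215 to 0.90 over 11 settings. Cdkn1a was higher with SB525334 than with Sora, 118.9 ± 23.5 and 86.4 ± 20.2 CPM, by a log2 fold change of 0.46 (standard error 0.14, adjusted p = 0.00239 by edgeR). In 6 of 9 SB525334 libraries Cdkn1a lay above the highest Sora library. With total counts this difference was 0.092 and was not called (adjusted p = 0.55, the highest over 11 settings, with 0.00151 the lowest). Across all genes the median log2 difference was -0.37 with total counts and -0.018 with TMM factors, so both genes shifted with the median gene.

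SB525334 exceeded Nint in Ccnd1, 187.9 ± 52.4 and 129.7 ± 27.5 CPM, by a log2 fold change of 0.53 (standard error 0.12, adjusted p = 0.000123 by edgeR), where 72.7% of all genes were called (36.4% higher and 36.3% lower). The call was lost with total counts (log2 fold change 0.13, adjusted p = 0.312, the highest over 11 settings, with 1.02e-07 the lowest). Across all genes the median log2 difference was -0.39 with total counts and -0.0074 with TMM factors, so Ccnd1 shifted with the median gene. Cdkn1a differed between SB525334 and Nint by 0.23 (95% interval -0.046 to 0.50, edgeR adjusted p = 0.1295), and with total counts by -0.17. It was called, at 0.30, without Nint library 4 (adjusted p = 0.0411, against 0.0411 to 0.248 over 19 single libraries left out).

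With each compound, both genes still differed from their sham levels. Against Sham_veh, Ccnd1 was 18.3-fold higher with SB525334 (95% interval 14.9 to 22.4), 12.6-fold higher with Nint (10.4 to 15.4) and 17.4-fold higher with Sora (14.2 to 21.3), with edgeR adjusted p = 2.15e-29, 1.03e-27 and 2.01e-29. These comparisons called 81.2% (SB525334), 80.9% (Nint) and 80.4% (Sora) of all genes, with 42.9%, 40% and 40.1% higher. Cdkn1a fell by 0.98 with SB525334, by 1.21 with Nint and by 1.44 with Sora on the log2 scale (edgeR adjusted p = 1.9e-08, 3.97e-11 and 2.39e-13), where 38.4%, 40.9% and 40.3% of genes were called lower. With TMM factors no library of any ligated group lay within the sham range for either gene, as was so for 41.5% (SB525334), 50.3% (Nint) and 48.6% (Sora) of all genes. With total counts Nint library 4, at 167.4 CPM of Cdkn1a, lay within the sham range, which began at 165.5 CPM.

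Ordered by mean level, Ccnd1 ran from BDL_SB525334 (187.9 CPM) over BDL_Sora (178.9), BDL_Nint (129.7) and BDL_veh (96.2) to Sham_veh (10.2). The first 2 of this order did not differ beyond their spread, and each later neighbouring pair was called in the comparisons above. Of these calls, that between BDL_Sora and BDL_Nint was not stable and was lost with plate column as a factor. With total counts BDL_Sora, at 192.5 CPM, came before BDL_SB525334, at 156.2 CPM. Cdkn1a, taken from the lowest mean upward, ran from BDL_Sora (86.4 CPM) over BDL_Nint (101.7), BDL_veh (116.2) and BDL_SB525334 (118.9) to Sham_veh (234.4). Of neighbouring pairs, only the step to Sham_veh was called, and within the ligated groups only Sora was called against BDL_veh and against BDL_SB525334. With total counts BDL_SB525334, at 99.3 CPM, fell between BDL_Nint, at 111.7, and BDL_Sora, at 93.1.

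The ratio of Ccnd1 counts to Cdkn1a counts within a library does not depend on how libraries are scaled. It compares reads and not molecules, because the counts are not divided by transcript length, so its size has no meaning by itself and it is given for its change between groups, without a test. The ratio was 1.60 ± 0.418 in BDL_SB525334, 1.30 ± 0.207 in BDL_Nint, 2.13 ± 0.341 in BDL_Sora, 0.842 ± 0.116 in BDL_veh and 0.0465 ± 0.016 in Sham_veh (SD). Every Sora library, at 1.69 to 2.88, lay above every vehicle library, at 0.708 to 1.06. The SB525334 libraries, at 1.07 to 2.37, also lay above the vehicle range, the lowest of them by little. The Nint libraries, at 0.993 to 1.61, overlapped with it. The Sora and Nint libraries did not overlap. Sham libraries lay at 0.020 to 0.068, far below all others.

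**Figure D4:**
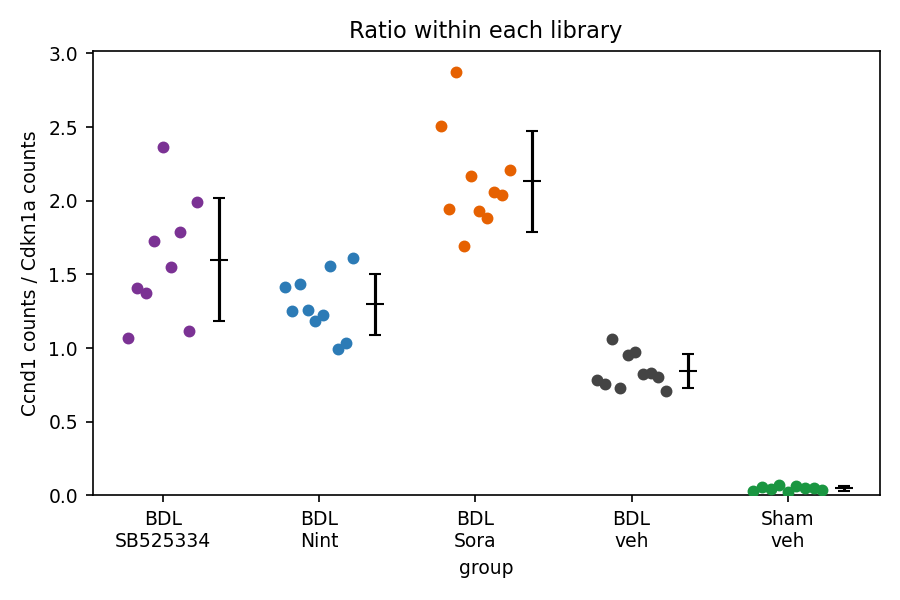
Ratio of Ccnd1 counts to Cdkn1a counts within each library, by group, with the mean and 1 SD beside the points. The ratio is highest with Sora, at 1.69 to 2.88, and lies at 0.708 to 1.06 in ligated vehicle slices and at 0.020 to 0.068 in sham slices.

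With Sora both parts of the ratio were called against vehicle, Ccnd1 higher and Cdkn1a lower, and with SB525334 and Nint only Ccnd1 was. Sora libraries 3 and 1 had the highest ratios, 2.88 and 2.51, and the lowest Cdkn1a of all libraries. Vehicle libraries 3 and 6 had the highest ratios of their group, up to 1.06, with the lowest Cdkn1a, 79.2 and 94.4 CPM against 112.6 or more in the other 8. Without vehicle libraries 3 and 6, which earlier results of these data had set apart, the log2 difference of Cdkn1a between SB525334 and vehicle was -0.056, and no call against BDL_veh changed.

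Between libraries of one group, Ccnd1 and Cdkn1a went together in the Sora, Nint and vehicle groups and in opposite directions in the sham group. In the vehicle and sham groups r depended on a few libraries, as given below. Over the 10 Sora libraries log2 CPM of Ccnd1 and Cdkn1a correlated with Pearson r = 0.84 (permutation p = 0.00268, adjusted over 5 groups 0.00743) and Spearman rho = 0.82 (permutation p = 0.00562, adjusted 0.0281). Over the 10 Nint libraries r was 0.72 (permutation p = 0.0175, adjusted 0.0291) and rho 0.70 (permutation p = 0.0311, adjusted 0.0388). Nint library 4 was the highest of its group for both genes and library 7 the lowest for both.

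Over the 10 vehicle libraries r was 0.63 (permutation p = 0.0403, adjusted 0.0504) and rho 0.73 (permutation p = 0.0199, adjusted 0.0357). Over the 9 SB525334 libraries r was 0.48 (exact permutation p = 0.191, adjusted 0.191) and rho 0.50 (exact permutation p = 0.178, adjusted 0.178), values that mix the separate Ccnd1 ranges described above. Over the 6 outside libraries 1, 6 and 8, r was 0.40 (exact permutation p = 0.469) and rho 0.43 (exact permutation p = 0.419). Over the 9 sham libraries r was -0.85 (exact permutation p = 0.00297, adjusted 0.00743) and rho -0.77 (exact permutation p = 0.0214, adjusted 0.0357). All tests were two-sided, and the difference in sign between sham and ligated groups was not itself tested.

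**Figure D5:**
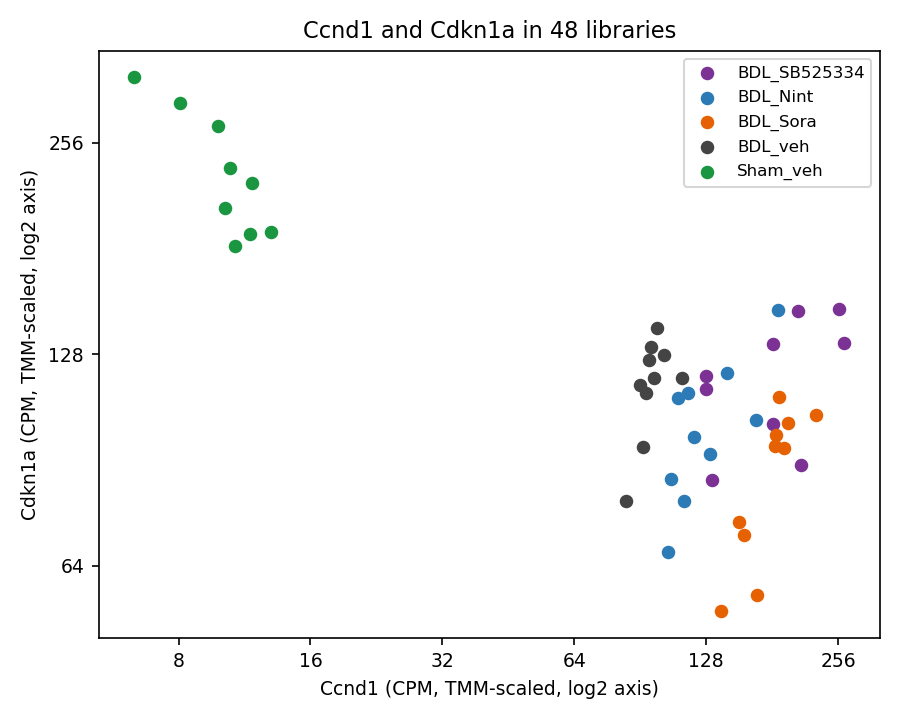
Cdkn1a against Ccnd1 in 48 libraries, both in TMM-scaled CPM on log2 axes, coloured by group. Sham_veh libraries sit apart at low Ccnd1 and run downward (r = -0.85), and within BDL_Sora, BDL_Nint and BDL_veh the points run upward, with r from 0.63 to 0.84. In Sham_veh and BDL_veh r depended on a few libraries.

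The relations were next taken without the 2 libraries farthest from the median of Ccnd1. Then r was 0.79 in BDL_Sora (exact permutation p = 0.0308, n = 8), 0.61 in BDL_Nint (exact permutation p = 0.0961, n = 8), 0.64 in BDL_veh (exact permutation p = 0.0709, n = 8) and -0.57 in Sham_veh (exact permutation p = 0.168, n = 7). In BDL_SB525334 r was 0.52 (exact permutation p = 0.245, n = 7). Of these only the relation in the Sora group passed 0.05. Leaving out libraries 3 and 5 changed r little in BDL_veh. Leaving out libraries 1 and 5 changed it more in Sham_veh, where much of the relation rests on them. Leaving out libraries at the ends of a group can lower r by construction, and fewer libraries remain. The p-values of this paragraph therefore cannot decide whether a relation holds, and no test is given for the next values. Over the 6 sham libraries outside 1, 5 and 9 r was -0.31, and over the 8 vehicle libraries outside 3 and 6, the lowest in Cdkn1a, r was 0.15 and rho 0.52. In both groups r therefore depended on a few libraries. With total counts the signs were the same, with r of 0.32 (BDL_SB525334), 0.75 (BDL_Nint), 0.87 (BDL_Sora), 0.70 (BDL_veh) and -0.89 (Sham_veh). The 6 plate columns, taken from the well positions in the library names, held at most 3 libraries of a group each, too few for a relation within a column.

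Across all 48 libraries, the gene whose pattern was most like that of Ccnd1 was ENSRNOG00000017231. Likeness was the root-mean-square difference between 2 genes' log2 CPM profiles after each was centred and divided by its own SD, and it was 0.14 SD for this gene, against a median of 1.42 SD over 14774 genes. ENSRNOG00000017231 averaged 336.4 ± 43.4 CPM in BDL_SB525334, 273.3 ± 26.2 in BDL_Nint, 319.1 ± 32.9 in BDL_Sora, 252.6 ± 10.4 in BDL_veh and 54.0 ± 9.09 in Sham_veh (SD), the group order of Ccnd1. Since the gene was picked for its likeness over the same libraries, this order is no separate result. The next nearest gene, ENSRNOG00000055672, at 0.17 SD, averaged 571.8 CPM in BDL_veh and 17.1 CPM in Sham_veh.

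For Cdkn1a the nearest gene was less close. ENSRNOG00000009088 differed by 0.41 SD and averaged 603.7 ± 73.7 CPM in BDL_SB525334, 552.4 ± 95.9 in BDL_Nint, 546.6 ± 118.4 in BDL_Sora, 701.5 ± 102.6 in BDL_veh and 1761 ± 357.8 in Sham_veh (SD). The next, ENSRNOG00000006304, differed by 0.42 SD and averaged 264.1 CPM in BDL_SB525334, 165.0 CPM in BDL_veh and 463.1 CPM in Sham_veh. The nearest 2 genes of each member were the same, in the same order, in the authors' log2 CPM values. Ccnd1 and Cdkn1a themselves differed by 1.88 SD, which placed Cdkn1a at rank 13200 of 14774 in likeness to Ccnd1.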

How the data were processed

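RNA was taken from the slices with the RNeasy 96 kit and made into libraries by standard Illumina steps, per the labels' protocols. RSEM and edgeR, without versions, and the build Rnor_6.0 are named per the submitters' processing notes. For aligner, annotation and strand setting, nothing was given in the sources used here. Deposited by the authors were expected counts for 32883 genes, of which 8.02% were not whole (tolerance 1e-06), log2 CPM values for 14418 genes described as expressed and protein coding, and a table of quality metrics. Read 1 lay antisense in 98.37% to 98.99% of assigned reads, so the libraries are stranded.

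Counts were rounded, filtered with filterByExpr (14775 genes), scaled with TMM factors and fitted with edgeR 4.0.16 (estimateDisp, glmQLFit with robust estimation, glmQLFTest; R 4.3.3) on all 48 libraries at once, 1 coefficient per group and no covariate. A gene was called at an adjusted p under 0.05, and each of the 10 comparisons was adjusted over all genes tested. Log2 CPM used a prior count of 2. The fit was tested on simulated data in which few genes changed, evenly up and down. Such data cannot test the scaling where most genes are called. Intervals of fold changes are 95% intervals from the quasi-likelihood standard error, and Poisson intervals cover counting error only. Permutation tests used SciPy 1.17.1 (Python 3.11.15), exact under 10 libraries and with 100000 draws otherwise. All 207 pairs of libraries within a group differed beyond sampling noise (lowest chi-square per degree of freedom 3.94).

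The members, lists and tests were chosen with earlier results of these data known. Named genes were the 2 members and the 2 IDs nearest in pattern to each; the pathway and cell type lists were not used, since 0 of 32883 IDs had a symbol in the reference table. Alternatives were RLE factors, total counts, DESeq2 1.42.0, 2 other filters, fits of the 2 groups alone, limma 3.58.1 (voom with weighted samples, or on the authors' log2 CPM), plate column as a factor, a replicate number block, and libraries left out singly or in sets.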

Additional observations from a re-analysis of the deposited data

How the results depend on the processing

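Of 20 gene results, 13 kept direction and side of the threshold in every setting tried: the 8 against Sham_veh, both genes with Sora and Ccnd1 with Nint and with SB525334 against vehicle, and Cdkn1a with Nint against Sora. Of the other 7, Cdkn1a with SB525334 against vehicle (0.032) took the opposite sign with RLE factors (-0.037), DESeq2 (-0.036), total counts (-0.39), the filter of 5 CPM in at least 9 libraries (-0.029), plate column (-0.071), the 2 groups alone (-0.042) and without vehicle libraries 3 and 6 (-0.056). With total counts Ccnd1 was -0.30 for SB525334 against Sora and 0.13 against Nint, and Cdkn1a 0.092 against Sora and -0.17 against Nint. The medians of all genes were then -0.37 against Sora and -0.39 against Nint. With limma-voom Cdkn1a was called at -0.27 for Nint against vehicle and at 0.30 for SB525334 against Nint. Ccnd1 for Nint against Sora was -0.41 with plate column and not called, and Ccnd1 for SB525334 against Sora was called at 0.28 without SB525334 libraries 1, 6 and 8. The causes were not tested. Single libraries that turned a sign or a call were vehicle 3, SB525334 2 and SB525334 4 for Cdkn1a with SB525334 against vehicle, and SB525334 9 for Ccnd1 against Sora; the others stand in the results above. With single libraries left out, values ran from -0.54 to -0.42 for Ccnd1 with Nint against Sora, -0.018 to 0.084 for Cdkn1a with SB525334 against vehicle, -0.0051 to 0.13 for Ccnd1 with SB525334 against Sora and 0.17 to 0.30 for Cdkn1a with SB525334 against Nint.

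The share of all genes called moved by over 1.5 times for Sora against vehicle (29.3%; 18.2% without a filter, 51.3% with limma-voom), Nint against vehicle (24.3%; 15.3% without a filter, 40.1% from the 2 groups alone, 43.7% with limma-voom) and Nint against Sora (2.32%; 1.09% with plate column to 25% with limma-voom, and 1.12% to 3.84% with 1 library left out). Replicate numbers showed no pairing of libraries. Over 93 same-numbered pairs of different groups the deviations from group means correlated with a median of 0.013 (-0.281 to 0.55). Over 828 differently numbered pairs the median was 0.00493 (-0.482 to 0.632). Of 48 libraries, 4 correlated best with their own number. With plate column as a factor the ligation changes were 3.18 for Ccnd1 and -0.95 for Cdkn1a. With replicate number as a block no call of the 20 changed, and the ligation changes were 3.22 for Ccnd1 and -1.03 for Cdkn1a. Depth limits little here, since the lowest count of either gene was 82.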
